A study of Mus musculus with 13 samples.

Results

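The genes described here encode enzymes that oxidise, reduce, hydrolyse and conjugate drugs, steroids, lipids and other small molecules. They were chosen by symbol alone: every row of the counts table named as a cytochrome P450 (Cyp), a cytosolic or microsomal glutathione transferase (Gst, Mgst), a carboxylesterase (Ces), a UDP-glucuronosyltransferase (Ugt) or a sulfotransferase (Sult), together with Nqo1 and Srd5a1. The rule found 192 members among 24495 genes: 104 Cyp, 25 Gst and Mgst, 19 Ces, 21 Ugt and 21 Sult genes and the 2 single genes. Of these, 57 had enough reads to be tested, 107 had some reads but fell below the filter on low counts, and 28 had no read in any library.

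RNA was measured by bulk sequencing in cultures of mouse embryonic fibroblasts (MEFs) of embryonic day 12.5 (strain background V6.5 129XBI/6). The infected cells were Tet2-/- and carry the reprogramming factors Pou5f1, Klf4, Sox2 and Myc (OKSM) under doxycycline control, with the rtTA activator. TET2 oxidises methylcytosine in DNA. The 4 groups were Tet2-E (n = 4), cells given a pMXs retrovirus with a Tet2 form that the labels call a stalling mutant, Tet2-WT (n = 3), cells given wild-type Tet2 in the same vector, pMXs (n = 3), cells given the empty vector, and Untreated (n = 3), MEFs labelled as controls that were not reprogrammed. The first 3 groups were collected at day 5 of reprogramming. Their medium held LIF, 2 µg/mL doxycycline, the MEK inhibitor PD0325901 (1 µM) and the GSK3 inhibitor CHIR99021 (3 µM). The labels give 5% oxygen for all 4 groups. The infected cells of all 3 day 5 groups were Tet2-/-, and the Tet2 of both vectors is driven by a retrovirus. The labels leave unclear whether Untreated MEFs carry a vector or are Tet2-/-. In pMXs against Untreated, reprogramming, vector, the day 5 medium, feeder MEFs and any difference in genotype therefore cannot be told apart. Day 5 cells grew on growth-arrested feeder MEFs, and no sort or removal of feeders is named, so a library is read as the whole culture, in which fewer cells of a type and less RNA per cell cannot be told apart.

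The libraries held 14052600 to 26265400 counts, of which members took 0.126 to 0.181%. Values are CPM (counts scaled to library size) after TMM scaling, and values per library follow the replicate numbers of the labels in ascending order: 1, 2, 100 and 250 for Tet2-E, 1, 2 and 250 for Tet2-WT, 2, 100 and 250 for pMXs and 1, 2 and 100 for Untreated. Tet2 RNA was 1356, 1403, 581 and 1299 CPM in Tet2-E and 1176 to 1243 CPM in Tet2-WT, so Tet2-E replicate 100 carried less transgene RNA than the rest. It was 39.1 to 58.8 CPM in pMXs and 37.8 to 48.3 CPM in Untreated. The source of the Tet2 RNA in pMXs was not tested. Summed over 12 fibroblast markers, levels were 14001 to 15143 CPM in Tet2-E, 10331 to 12041 CPM in Tet2-WT, 16356 to 18539 CPM in pMXs and 39360 to 41686 CPM in Untreated. Untreated replicate 100 stood apart by RNA of hepatocyte markers: 12 of them summed to 73.7 CPM there, against 0.958 to 3.02 CPM in the other 12 libraries.

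Cytochrome P450 enzymes are haem proteins that insert an oxygen atom into their substrates with electrons from a reductase. Some of them act on drugs and mostly work in liver, while others make or break down steroids, bile acids, retinoic acid and fatty acids in many tissues. Glutathione transferases join glutathione to reactive compounds, carboxylesterases cut ester bonds, and glucuronosyltransferases and sulfotransferases attach a sugar acid or a sulfate that makes a compound soluble. Several of these genes are textbook targets of NRF2 (Nfe2l2), the activator of the antioxidant response, or of the aryl hydrocarbon receptor (Ahr).

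Wild-type Tet2 was the day 5 condition in which more members differed from the empty vector. The verbs rose, fell and changed are kept for genes with an adjusted p under 0.05 in edgeR's quasi-likelihood test (Benjamini-Hochberg over all 14607 genes tested), and fold changes are log2 values ± SE. Between Tet2-WT and pMXs, 14 of 57 tested members changed (24.6%), beside 12.5% of all genes, with 12 higher (6.01% of all genes) and 2 lower (6.52%). Between Tet2-E and Tet2-WT, 7 members changed (12.3%), beside 4.62% of all genes, with 1 higher (2.19% of all genes) and 6 lower (2.43%). Between Tet2-E and pMXs, edgeR called 0 members, beside 0.0479% of all genes (0.0205% higher, 0.0274% lower), although 10 members had an unadjusted p under 0.05, as had 9.33% of all genes. In that comparison DESeq2 called 3 members (Ces2g, Gsto1 and Srd5a1) and edgeR with the replicate number as a block called 2 (Ces2g and Gsto1), all of them higher in Tet2-E. Between pMXs and Untreated, 38 members changed (66.7%), beside 70.1% of all genes, with 21 higher and 17 lower, beside 35.0% of all genes each way. The median log2 fold change of the tested members was -0.12, -0.01, 0.09 and -0.05 in these comparisons taken as Tet2-E against Tet2-WT, Tet2-E against pMXs, Tet2-WT against pMXs and pMXs against Untreated, with a median over all genes within 0.01 of 0 in each. Nothing in the labels ties the replicates to separate cultures, so the p-values reflect library-to-library spread, which may be technical.

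**Figure D1:**
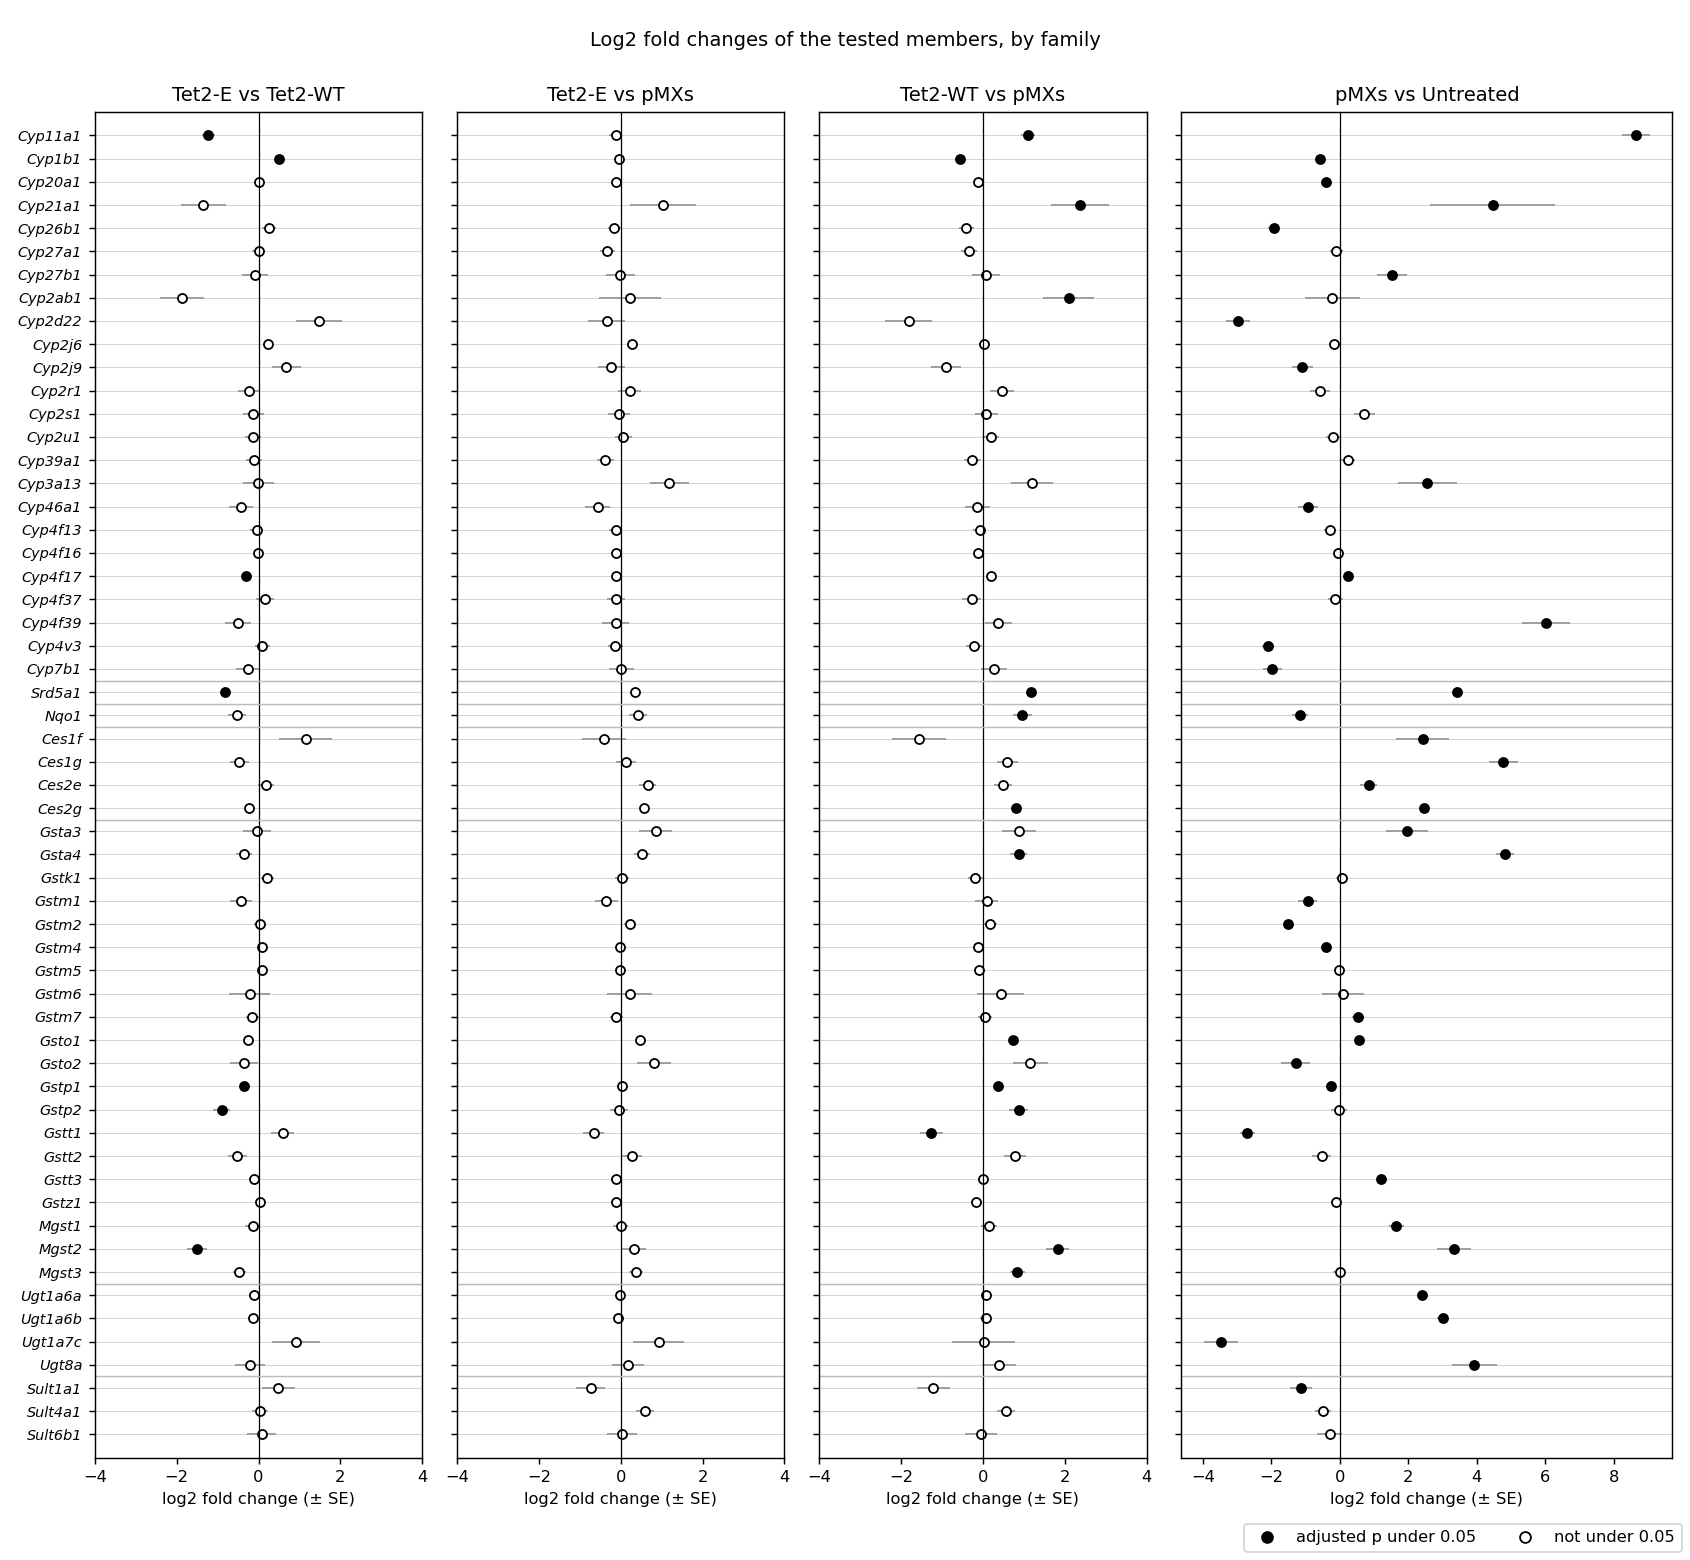
Log2 fold change (x axis, with SE) of each of the 57 tested members (rows, ordered by family) in the 4 comparisons, with filled points for an adjusted p under 0.05. In Tet2-WT against pMXs 12 filled points lie to the right of 0 and 2 to the left, and in Tet2-E against pMXs no point is filled. The fitted pMXs against Untreated values of Cyp11a1, Cyp4f39 and Cyp21a1 rest on 3, 2 and 0 counts in Untreated.

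Between day 5 groups, 6 members changed both between Tet2-WT and pMXs and between Tet2-E and Tet2-WT, each in opposite directions in the 2 comparisons, which share the Tet2-WT libraries: Srd5a1, Cyp11a1, Cyp1b1, Gstp1, Gstp2 and Mgst2. Their promoters are shown because TET enzymes act on methylated CG dinucleotides, which stand in capitals. Each is the RefSeq promoter of the GRCm38.p6 build, from 250 bases before to 50 bases after the start site, 5′ to 3′ on the gene's strand. They lie at chr13:69611414-69611713 on the minus strand for Srd5a1, chr9:57997774-57998073 on the plus strand for the first of 2 Cyp11a1 entries, chr17:79715012-79715311 on the minus strand for Cyp1b1, chr19:4037863-4038162 and chr19:4042172-4042471 on the minus strand for Gstp1 and Gstp2, and chr3:51660929-51661228 on the plus strand for Mgst2.
Srd5a1: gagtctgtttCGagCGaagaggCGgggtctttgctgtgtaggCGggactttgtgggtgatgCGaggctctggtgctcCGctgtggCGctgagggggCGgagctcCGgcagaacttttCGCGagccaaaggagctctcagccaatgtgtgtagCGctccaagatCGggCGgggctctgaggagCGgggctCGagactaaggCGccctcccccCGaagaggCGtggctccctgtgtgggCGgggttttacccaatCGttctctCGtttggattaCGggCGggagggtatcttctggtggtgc
Cyp11a1: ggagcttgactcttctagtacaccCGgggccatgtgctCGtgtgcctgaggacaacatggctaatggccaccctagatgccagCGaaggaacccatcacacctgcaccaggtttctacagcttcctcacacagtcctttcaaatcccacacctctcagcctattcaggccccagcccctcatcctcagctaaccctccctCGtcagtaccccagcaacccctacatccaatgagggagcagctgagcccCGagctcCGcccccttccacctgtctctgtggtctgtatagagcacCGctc
Cyp1b1: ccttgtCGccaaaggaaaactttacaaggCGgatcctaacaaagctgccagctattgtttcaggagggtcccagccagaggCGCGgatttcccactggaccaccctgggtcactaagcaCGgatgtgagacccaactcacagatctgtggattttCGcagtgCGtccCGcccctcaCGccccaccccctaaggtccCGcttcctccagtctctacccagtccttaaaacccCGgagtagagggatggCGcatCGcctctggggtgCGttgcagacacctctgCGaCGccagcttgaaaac
Gstp1: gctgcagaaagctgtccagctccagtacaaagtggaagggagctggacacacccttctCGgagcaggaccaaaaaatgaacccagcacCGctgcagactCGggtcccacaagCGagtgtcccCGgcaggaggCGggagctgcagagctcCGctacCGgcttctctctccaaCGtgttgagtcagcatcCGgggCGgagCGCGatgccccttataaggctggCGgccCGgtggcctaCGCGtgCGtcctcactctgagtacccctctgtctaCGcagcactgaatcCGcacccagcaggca
Gstp2: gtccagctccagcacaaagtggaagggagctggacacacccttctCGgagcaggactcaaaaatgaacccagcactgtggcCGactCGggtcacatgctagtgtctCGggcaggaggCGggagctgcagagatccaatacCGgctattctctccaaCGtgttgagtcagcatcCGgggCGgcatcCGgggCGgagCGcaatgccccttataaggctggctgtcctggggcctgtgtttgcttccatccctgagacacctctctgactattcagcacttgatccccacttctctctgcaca
Mgst2: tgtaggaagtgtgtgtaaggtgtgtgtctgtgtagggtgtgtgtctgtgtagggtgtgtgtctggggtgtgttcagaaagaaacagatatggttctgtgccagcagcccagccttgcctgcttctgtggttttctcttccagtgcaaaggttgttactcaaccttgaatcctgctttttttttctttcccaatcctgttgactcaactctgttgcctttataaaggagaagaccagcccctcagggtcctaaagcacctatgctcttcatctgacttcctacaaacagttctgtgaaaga

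These promoters ranged widely in CG content: 24 CG dinucleotides in Srd5a1, 20 in Gstp1, 16 in Cyp1b1, 12 in Gstp2, 7 in Cyp11a1 and 0 in Mgst2. Over 32851 RefSeq promoters of the same length the median was 7, with quartiles of 3 and 20. The second Cyp11a1 entry held 1. The core motif of the aryl hydrocarbon receptor, GCGTG, searched on both strands, occurred once each in Srd5a1 (at -32 from the start), Gstp1 (-13) and Cyp1b1 (-76, minus strand), and in 32.4% of all promoters. The exact antioxidant response core TGACNNNGC, which does not contain the other motif, was in none of the 6 windows and in 12.4% of all promoters. Gstp1 and Gstp2 both hold tgagtcagc, which differs from this core only by G in place of C. Near matches were not searched for, and their share of all promoters was not counted. Methylation was not measured in these libraries, and a match describes letters only.

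Among the cytochrome P450 genes, 4 of 24 tested members changed between Tet2-WT and pMXs (16.7%, beside 12.5% of all genes). Between Tet2-E and Tet2-WT 3 changed (12.5%, beside 4.62% of all genes). Cyp11a1, the mitochondrial enzyme that cuts the side chain of cholesterol in the first step of steroid hormone synthesis, was higher in Tet2-WT than in either other day 5 group. It had 20.5, 19.9, 21.0 and 16.7 CPM in Tet2-E, 55.0, 50.7 and 31.0 CPM in Tet2-WT, 22.3, 20.1 and 21.6 CPM in pMXs, and 0, 0.101 and 0.0487 CPM in Untreated. All 3 Tet2-WT libraries lay above every other library, replicate 250 by less than the other 2, while Tet2-E and pMXs overlapped. Cyp11a1 rose in Tet2-WT over pMXs (1.10 ± 0.17, edgeR adjusted p = 0.000619) and was lower in Tet2-E than in Tet2-WT (-1.23 ± 0.16, edgeR adjusted p = 0.000355). Within replicate numbers 1 and 2, with 1 pMXs library, the Tet2-WT against pMXs change was 1.24. Within 100 and 250, with 1 Tet2-WT library, it was 0.58. The Tet2-E against pMXs difference was -0.13 ± 0.16, with a 95% interval of -0.45 to 0.20.

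In Untreated MEFs Cyp11a1 RNA was almost absent, with 3 counts over the 3 libraries against 1191 counts in pMXs. The ratio of pMXs to Untreated was 453, with a counting interval of 155 to 2199. Some other genes of steroid-making cells did not share this pattern. Hsd3b1, which makes progesterone from the product of Cyp11a1, had no read in any library. Nr5a1, the master regulator of steroid-making cells, had a group mean of at most 0.0655 CPM. Star, which carries cholesterol into mitochondria, averaged 5.74 ± 0.39 CPM in Tet2-E, 6.40 ± 0.32 in Tet2-WT, 6.02 ± 0.20 in pMXs and 4.84 ± 1.08 in Untreated (SD) and passed the test in no comparison. The electron donors of Cyp11a1, Fdx1 and Fdxr, also passed in no comparison between day 5 groups. In pMXs against Untreated, Fdxr rose (0.41, edgeR adjusted p = 0.009) and Fdx1 fell (-0.29, 0.0453, kept in 3 of 15 alternatives). Of 11 tested steroid synthesis genes outside the members, 3 rose and 5 fell there. Akr1c18 was among those that rose (2.87, edgeR adjusted p = 7.08e-05). The nuclear receptor gene Nr5a2 also rose (5.45, edgeR adjusted p = 2.64e-06).

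Cyp1b1, which oxidises oestrogens, retinoids and polycyclic hydrocarbons and is a textbook Ahr target, moved the opposite way. It had 516, 567, 459 and 423 CPM in Tet2-E, 344, 348 and 346 CPM in Tet2-WT, 561, 492 and 471 CPM in pMXs, and 764, 883 and 638 CPM in Untreated. The Tet2-WT libraries lay close together and below every other library, and the Untreated libraries lay above all others. Cyp1b1 fell in Tet2-WT against pMXs (-0.55 ± 0.12, edgeR adjusted p = 0.00607), was higher in Tet2-E than in Tet2-WT (0.51 ± 0.11, edgeR adjusted p = 0.0156) and fell in pMXs against Untreated (-0.58 ± 0.12, edgeR adjusted p = 0.000423). The Tet2-E against Tet2-WT call was lost without Tet2-WT replicate 1 (edgeR adjusted p = 0.0757) or replicate 2 (0.0709). Within replicate numbers 100 and 250, with 1 Tet2-WT library, the difference was 0.35. Per kilobase of exon, the mean of Cyp1b1 was 84.1 CPM per kb in Tet2-E, behind Gsto1 and Gsta4, and 130 CPM per kb in Untreated, the highest of all members there.

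The other P450 calls between day 5 groups were small or rested on few reads. Cyp4f17, of a subfamily of fatty acid hydroxylases, had 16.6, 14.8, 16.4 and 16.3 CPM in Tet2-E, 19.5, 19.6 and 20.6 CPM in Tet2-WT, 16.7, 17.0 and 18.2 CPM in pMXs, and 15.5, 14.3 and 14.4 CPM in Untreated. It was lower in Tet2-E than in Tet2-WT (-0.31 ± 0.08, edgeR adjusted p = 0.0264), a call that was lost on leaving out any of 6 of the 7 libraries, that is, all but Tet2-E replicate 1 (adjusted p 0.0530 to 0.0910). Cyp21a1, a hydroxylase of corticosteroid synthesis, and Cyp2ab1, both named here after their values were seen, rose in Tet2-WT over pMXs at mean levels of 0.666 and 0.704 CPM in Tet2-WT against 0.116 and 0.153 CPM in pMXs (edgeR adjusted p = 0.0437 and 0.0389). With the replicate block these calls were lost (0.0620 and 0.114), and Cyp2d22 was called instead, lower in Tet2-WT (-1.84, 0.0261). The Cyp2ab1 call was also lost on leaving out any Tet2-WT or pMXs library (adjusted p 0.0723 to 0.113). The Cyp21a1 call was lost on leaving out any of these but Tet2-WT replicate 250 (0.0933 to 0.184). Neither gene passed the filter of 1 CPM in 3 libraries. The remaining 20 tested P450 genes did not pass between Tet2-WT and pMXs.

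Between pMXs and Untreated, 14 of 24 tested P450 genes changed (58.3%, beside 70.1% of all genes), 6 higher and 8 lower. Cyp4f39, which hydroxylates very long fatty acids for the skin barrier, had 2.62, 1.80, 1.68 and 2.65 CPM in Tet2-E, 4.17, 3.21 and 1.96 CPM in Tet2-WT, 3.61, 1.84 and 1.85 CPM in pMXs, and 0, 0.101 and 0 CPM in Untreated. With 132 counts in pMXs and 2 in Untreated the ratio was 75.3, with a counting interval of 20.4 to 628. The day 5 groups overlapped for this gene. Among the P450 genes that fell, Cyp26b1, which breaks down retinoic acid, had 20.2, 22.1 and 17.9 CPM in pMXs against 84.5, 93.3 and 52.3 CPM in Untreated (-1.93 ± 0.17, edgeR adjusted p = 1.47e-07). Cyp4v3, the mouse counterpart of a fatty acid hydroxylase needed in the human retina, had 4.25 to 7.46 CPM in pMXs against 21.8 to 32.4 CPM in Untreated (-2.11 ± 0.18, edgeR adjusted p = 5.78e-08). Cyp7b1, an oxysterol hydroxylase, fell by 1.98 ± 0.28 and Cyp2d22, of the drug-metabolising subfamily 2D, fell by 2.98 ± 0.36 on the log2 scale, with no overlap between the libraries of the groups. Cyp20a1, a P450 with no assigned substrate, was level between day 5 groups, at 29.0 to 34.9 CPM, and was 44.7 to 46.9 CPM in Untreated (pMXs against Untreated -0.41 ± 0.07, edgeR adjusted p = 8.68e-05).

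**Figure D2:**
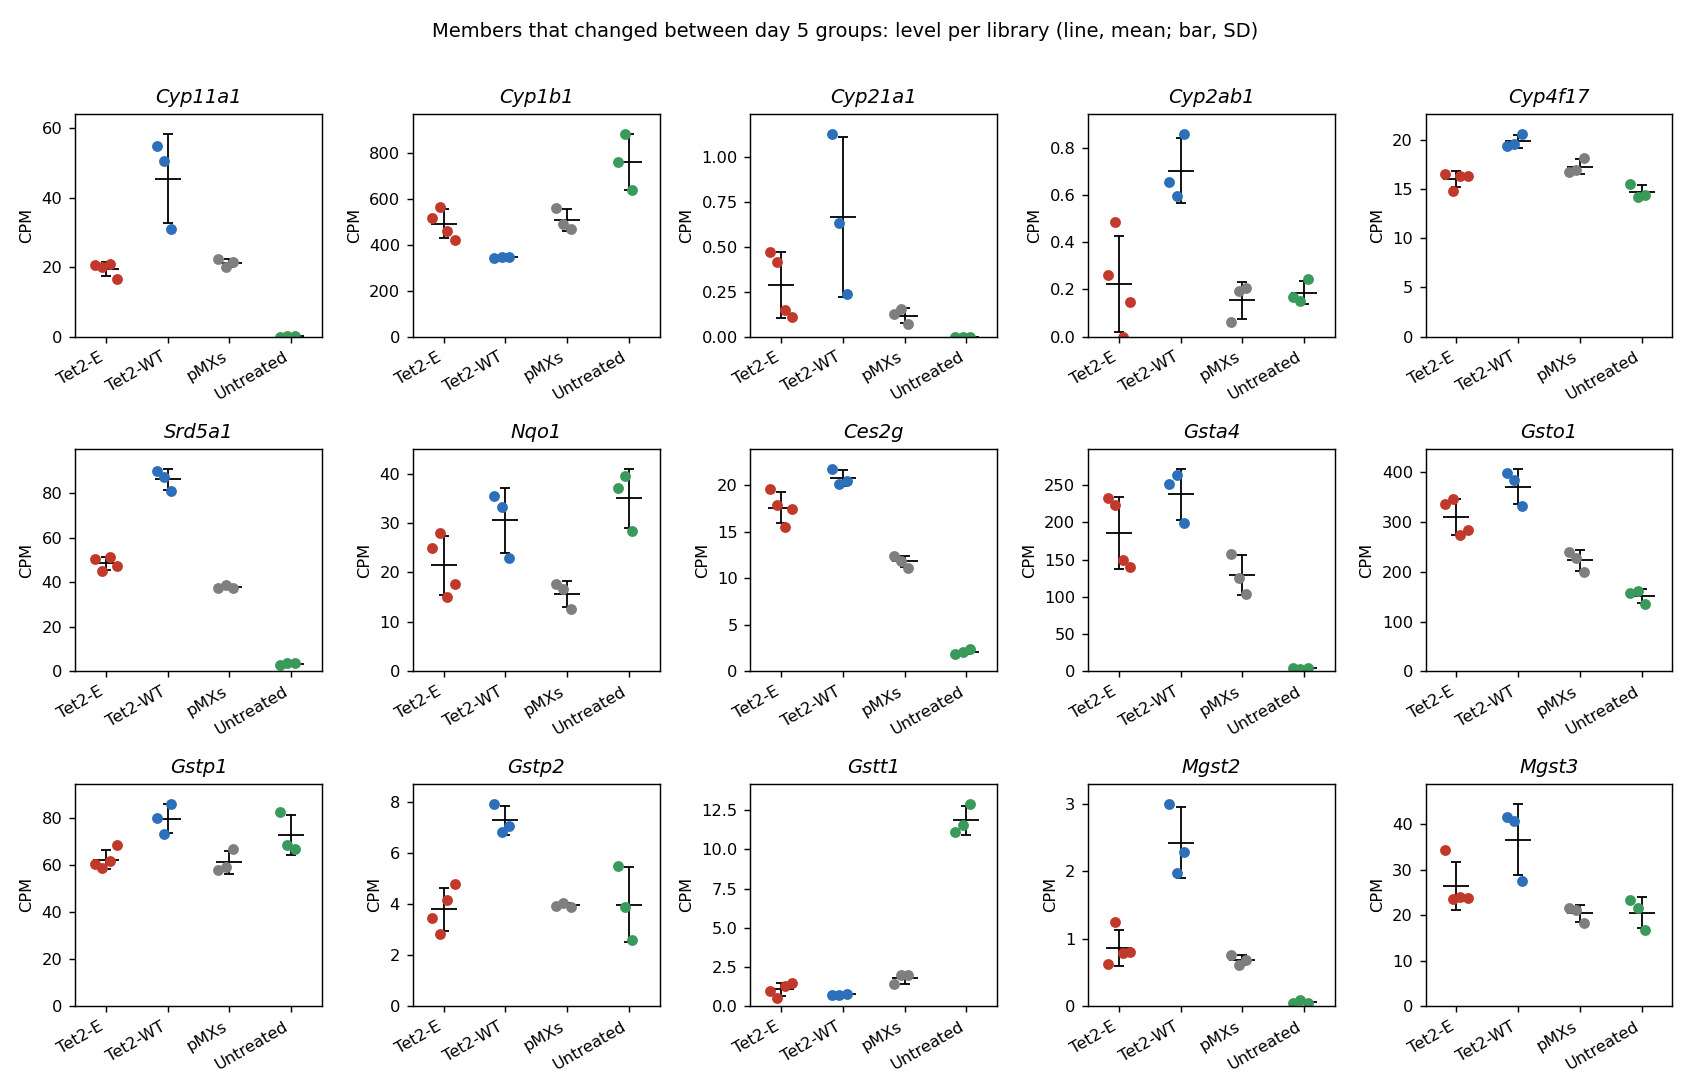
CPM in each of the 13 libraries (points) for the 15 members that changed between day 5 groups, with the mean (line) and SD (bar) of each group and y axes that start at 0. For Srd5a1 the Tet2-WT libraries sit at 80.8 to 90.0 CPM, above the Tet2-E libraries at 45.1 to 51.1 CPM and the pMXs libraries at 37.3 to 38.7 CPM.

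Srd5a1, the reductase that turns testosterone into dihydrotestosterone, gave the smallest p of all members in both comparisons with Tet2-WT. It had 50.2, 45.1, 51.1 and 47.1 CPM in Tet2-E, 90.0, 87.3 and 80.8 CPM in Tet2-WT, 37.3, 38.7 and 37.6 CPM in pMXs, and 3.00, 3.93 and 3.65 CPM in Untreated. The groups did not overlap, in the order Tet2-WT, Tet2-E, pMXs and Untreated from high to low. Srd5a1 rose in Tet2-WT over pMXs (1.18 ± 0.08, edgeR adjusted p = 6.14e-07), was lower in Tet2-E than in Tet2-WT (-0.83 ± 0.07, edgeR adjusted p = 1.04e-05) and rose in pMXs over Untreated (3.43 ± 0.10, edgeR adjusted p = 7.62e-13). Its difference between Tet2-E and pMXs was 0.36 ± 0.08 and missed the threshold in edgeR (adjusted p = 0.11), but passed in DESeq2 (adjusted p = 0.00313).

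Nqo1, a quinone reductase and a textbook NRF2 target, had 25, 28, 15.1 and 17.7 CPM in Tet2-E, 35.4, 33.2 and 23.0 CPM in Tet2-WT, 17.8, 16.6 and 12.7 CPM in pMXs, and 37.2, 39.5 and 28.3 CPM in Untreated. In each day 5 group the libraries numbered 1 and 2 were higher than those numbered 100 and 250. Nqo1 rose in Tet2-WT over pMXs (0.96 ± 0.23, edgeR adjusted p = 0.0148), by 0.95 within numbers 1 and 2 and by 0.63 within 100 and 250, and fell in pMXs against Untreated (-1.15 ± 0.23, edgeR adjusted p = 0.000531). The Tet2-WT against pMXs call was lost without Tet2-WT replicate 1 (0.0657) or 2 (0.0605) or without pMXs replicate 250 (0.0701). Between Tet2-E and Tet2-WT it differed by -0.53 ± 0.21 (edgeR adjusted p = 0.218), and by -0.45 with the replicate block, where it passed (0.0237).

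The glutathione transferases held the largest group of changes with wild-type Tet2. Between Tet2-WT and pMXs, 7 of 20 tested members changed (35.0%, beside 12.5% of all genes). Of these, 6 were higher (Gsta4, Gsto1, Gstp1, Gstp2, Mgst2 and Mgst3) and Gstt1 was lower. Summed over the family, reads were 839 ± 57 CPM in Tet2-E, 1001 ± 34 CPM in Tet2-WT, 696 ± 22 CPM in pMXs and 460 ± 12 CPM in Untreated (SD). In the day 5 groups Gsto1 made up 32.0 to 37.1% of these sums and Gsta4 18.6 to 23.7%. Per kilobase of exon, Gsto1 and Gsta4 had the highest means of all members in Tet2-E, at 153 and 147 CPM per kb, ahead of Cyp1b1 at 84.1, and the libraries of Gsta4 overlapped with those of Gsto1 but not with those of Cyp1b1.

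Gsto1, an omega-class enzyme that reduces thiol adducts, had 337, 345, 274 and 284 CPM in Tet2-E, 399, 384 and 331 CPM in Tet2-WT, 241, 228 and 200 CPM in pMXs, and 157, 162 and 135 CPM in Untreated. All Tet2-E and Tet2-WT libraries lay above all pMXs libraries. It rose in Tet2-WT over pMXs (0.74 ± 0.11, edgeR adjusted p = 0.000389), and in Tet2-E over pMXs its difference of 0.48 ± 0.10 missed the threshold (edgeR adjusted p = 0.111) but passed with the replicate block (0.43, 0.0131). Gsta4, which detoxifies the lipid aldehyde hydroxynonenal, had 233, 223, 149 and 140 CPM in Tet2-E, 251, 263 and 199 CPM in Tet2-WT, 158, 126 and 105 CPM in pMXs, and 4.83, 3.58 and 5.16 CPM in Untreated. It rose in Tet2-WT over pMXs (0.88 ± 0.21, edgeR adjusted p = 0.0132) and in pMXs over Untreated (4.83 ± 0.26, edgeR adjusted p = 2.86e-09). Both genes were higher in numbers 1 and 2 than in 100 and 250 in every day 5 group. Within these sets the Tet2-WT against pMXs change of Gsta4 was 0.71 and 0.78, and its call was lost without Tet2-WT replicate 2 (0.0562), pMXs replicate 100 (0.0514) or pMXs replicate 250 (0.0607).

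Mgst2, a microsomal enzyme that can also make leukotriene C, was low but clearly separated. It had 0.629, 1.25, 0.784 and 0.810 CPM in Tet2-E, 3.00, 1.98 and 2.29 CPM in Tet2-WT, 0.761, 0.613 and 0.684 CPM in pMXs, and 0.0416, 0.101 and 0.0487 CPM in Untreated. Tet2-WT lay above all other libraries, and Tet2-E overlapped with pMXs. Mgst2 rose in Tet2-WT over pMXs (1.82 ± 0.27, edgeR adjusted p = 0.000439), was lower in Tet2-E than in Tet2-WT (-1.51 ± 0.24, edgeR adjusted p = 0.00163), and rose in pMXs over Untreated (3.33 ± 0.50, edgeR adjusted p = 2.55e-05). Mgst3, its peroxidase relative, had 34.3, 23.5, 23.9 and 23.9 CPM in Tet2-E, 41.6, 40.6 and 27.5 CPM in Tet2-WT, 21.6, 21.2 and 18.3 CPM in pMXs, and 23.2, 21.6 and 16.7 CPM in Untreated. It rose in Tet2-WT over pMXs (0.84 ± 0.18, edgeR adjusted p = 0.00585). The difference was 0.93 within numbers 1 and 2 (1 pMXs library) but 0.47 within 100 and 250 (1 Tet2-WT library). Between Tet2-E and Tet2-WT it differed by -0.47 ± 0.16 (edgeR adjusted p = 0.13) and passed with the replicate block (-0.42, 0.0225).

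The pi-class genes Gstp1 and Gstp2, neighbours on chromosome 19 with similar sequences whose reads the counting may have split, rose together. Gstp1 had 60.4, 59.1, 61.9 and 68.6 CPM in Tet2-E, 80.4, 73.4 and 86.0 CPM in Tet2-WT, 58.0, 59.2 and 67.0 CPM in pMXs, and 82.7, 68.8 and 67.1 CPM in Untreated. Gstp2 had 3.46, 2.84, 4.14 and 4.79 CPM in Tet2-E, 7.93, 6.82 and 7.07 CPM in Tet2-WT, 3.93, 4.06 and 3.90 CPM in pMXs, and 5.49, 3.88 and 2.58 CPM in Untreated. For both genes the Tet2-WT libraries lay above all Tet2-E and pMXs libraries, which overlapped. In Tet2-WT over pMXs, Gstp1 rose by 0.38 ± 0.09 (edgeR adjusted p = 0.0144) and Gstp2 by 0.87 ± 0.22 (0.0170), and in Tet2-E against Tet2-WT they differed by -0.35 ± 0.09 (0.0290) and -0.90 ± 0.20 (0.0160). These calls depended on single libraries. Between Tet2-WT and pMXs, Gstp1 was lost without Tet2-WT replicate 1 or 250 or pMXs replicate 2 or 100 (adjusted p 0.0511 to 0.0691), and Gstp2 without Tet2-WT replicate 1 or pMXs replicate 100 or 250 (0.0617 to 0.0711). Between Tet2-E and Tet2-WT, Gstp1 was lost without Tet2-E replicate 1, 2 or 100 or Tet2-WT replicate 1 or 250 (0.0646 to 0.114), and Gstp2 without Tet2-WT replicate 1 or 2 (0.0875 and 0.0505).

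Gstt1, a theta-class enzyme, was the only glutathione transferase called lower in Tet2-WT than in pMXs. It had 0.944, 0.554, 1.31 and 1.51 CPM in Tet2-E, 0.704, 0.746 and 0.812 CPM in Tet2-WT, 1.39, 1.99 and 1.98 CPM in pMXs, and 11.1, 11.5 and 12.9 CPM in Untreated. Tet2-WT lay below pMXs, Tet2-E overlapped with both, and Untreated lay above all day 5 libraries. The change was -1.26 ± 0.28 in Tet2-WT against pMXs (edgeR adjusted p = 0.00749), and -0.93 within numbers 1 and 2, with 1 pMXs library. In pMXs against Untreated, Gstt1 changed by -2.71 ± 0.22 (edgeR adjusted p = 2.62e-08). Its neighbour in class, Gstt3, went the other way in that second comparison, with 53.8, 61.3 and 70.1 CPM in pMXs against 24.8, 25.7 and 29.8 CPM in Untreated (1.21 ± 0.13, edgeR adjusted p = 6.54e-07).

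Between pMXs and Untreated, 13 of 20 tested glutathione transferases changed (65.0%, beside 70.1% of all genes), 7 higher and 6 lower. The classes did not move as one. Mgst1, the most studied microsomal form, had 69.4, 90.4 and 92.7 CPM in pMXs against 22.9, 22.3 and 35.2 CPM in Untreated (1.65 ± 0.21, edgeR adjusted p = 9.76e-06). With the replicate block Mgst1 was also called higher in Tet2-WT than in pMXs (0.30, adjusted p = 0.0254), where it had not passed (0.14 ± 0.20). The mu-class genes Gstm1, Gstm2 and Gstm4 fell by 0.94 ± 0.28, 1.51 ± 0.15 and 0.41 ± 0.11 on the log2 scale, with edgeR adjusted p of 0.00945, 1.99e-07 and 0.00448. Gstm7 of the same class rose by 0.53 ± 0.17 (edgeR adjusted p = 0.0111), and Gstm5 and Gstm6 did not pass (-0.01 ± 0.08 and 0.09 ± 0.61). Gstm2, for example, had 5.83, 6.86 and 6.02 CPM in pMXs against 17.1, 18.1 and 18.6 CPM in Untreated. The mu-class genes lie in a cluster of similar sequences, so reads between them may have been split.

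The carboxylesterases were low in Untreated and higher in all day 5 groups, with family sums of 29.3 ± 4.5 CPM in Tet2-E, 34.3 ± 2.1 CPM in Tet2-WT, 21.3 ± 1.7 CPM in pMXs and 4.95 ± 1.7 CPM in Untreated (SD). All 4 tested members rose in pMXs over Untreated, beside 35.0% of all genes. One of them, Ces1f, named here after its values were seen, rested on few reads (2.42 ± 0.77, edgeR adjusted p = 0.0107). It had 0.317 CPM in pMXs replicate 2 and a mean of 0.504 CPM in pMXs replicates 100 and 250. Ces1f passed neither the filter of 1 CPM in 3 libraries nor the count filter in a fit of the compared groups alone. Ces2g, of the class that cuts drug esters in gut and liver, had 19.6, 17.9, 15.5 and 17.4 CPM in Tet2-E, 21.8, 20.2 and 20.5 CPM in Tet2-WT, 12.4, 11.9 and 11.2 CPM in pMXs, and 1.87, 2.12 and 2.43 CPM in Untreated. The groups again did not overlap and ran Tet2-WT, Tet2-E, pMXs, Untreated from high to low. Ces2g rose in Tet2-WT over pMXs (0.81 ± 0.10, edgeR adjusted p = 0.000121). In Tet2-E over pMXs it differed by 0.57 ± 0.10 and missed the threshold (edgeR adjusted p = 0.0606), but passed with the replicate block (0.0319), in DESeq2 (0.000485), without a filter (0.0357) and without Tet2-E replicate 100 (0.0233). Ces1g, a triglyceride hydrolase, had 4.45 to 10.1 CPM in Tet2-E, 8.17 to 10.2 CPM in Tet2-WT, 5.29 to 7.42 CPM in pMXs and 0.101 to 0.333 CPM in Untreated. It rose by 4.77 ± 0.42 in pMXs over Untreated (edgeR adjusted p = 9.45e-08), and Ces2e rose by 0.84 ± 0.24 (0.00618). Within numbers 1 and 2, with 1 pMXs library, the Ces2e difference was 0.75. Carboxylesterase genes lie in clusters of similar copies, so their reads may be split between members.

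All 4 tested glucuronosyltransferases passed between pMXs and Untreated in edgeR, beside 70.1% of all genes. Between day 5 groups 0 passed, beside 0.0479 to 12.5% of all genes (0 at an unadjusted p under 0.05 as well). Without the filter on low counts, Ugt1a1, which conjugates bilirubin and had 29 counts in all, was called higher in Tet2-WT than in pMXs (adjusted p = 0.0362). Ugt1a6a and Ugt1a6b, phenol-conjugating forms, had 16.0, 20.1 and 22.4 CPM and 14.6, 15.9 and 17.0 CPM in pMXs against 3.21, 3.93 and 3.94 CPM and 1.62, 1.61 and 2.68 CPM in Untreated. They rose by 2.41 ± 0.15 and 3.01 ± 0.16 (edgeR adjusted p = 1.56e-09 and 2.79e-10). Ugt1a7c had 0, 0.192 and 0.274 CPM in pMXs against 1.83, 1.76 and 1.90 CPM in Untreated and fell by 3.48 ± 0.50 (edgeR adjusted p = 1.5e-05). These 3 are first exons of one gene that share their remaining exons, so how the counting divided the shared reads is uncertain. Ugt8a, which makes the myelin lipid galactosylceramide, had 3.56, 3.6, 1.57 and 1.66 CPM in Tet2-E, 3.66, 3.62 and 1.34 CPM in Tet2-WT, 3.23, 1.72 and 1.78 CPM in pMXs, and 0.167, 0.202 and 0.0487 CPM in Untreated. It rose in pMXs over Untreated (3.93 ± 0.66, edgeR adjusted p = 8.09e-05), and in each day 5 group the libraries numbered 1 and 2 lay above those numbered 100 and 250.

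The sulfotransferases were low in all groups, with sums of 4.85 ± 0.81 CPM in Tet2-E, 4.71 ± 0.20 CPM in Tet2-WT, 3.78 ± 0.21 CPM in pMXs and 6.26 ± 0.91 CPM in Untreated (SD), and only 3 of 21 members could be tested. Sult1a1, which sulfates phenols, fell in pMXs against Untreated (-1.14 ± 0.31, edgeR adjusted p = 0.00448), with 0.761, 0.383 and 0.684 CPM in pMXs against 1.37, 1.11 and 1.36 CPM in Untreated. Within numbers 1 and 2, with 1 pMXs library, the change was -0.71. Sult1a1 overlaps the gene Sgf29 by 61 bases on the opposite strand, and whether counting used strand is not given in the sources used here. Sult4a1, a brain form with no settled substrate, had 3.21 to 4.61 CPM in Tet2-E, 3.71 to 3.77 CPM in Tet2-WT, 2.05 to 2.91 CPM in pMXs and 2.34 to 4.45 CPM in Untreated, and Sult6b1 lay between 0.224 and 0.708 CPM in all libraries. Neither passed in any comparison with all libraries. Sult4a1 was lower in pMXs than in Untreated without Untreated replicate 100 (-0.73, edgeR adjusted p = 0.00344) or pMXs replicate 100 (-0.64, 0.0488).

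**Figure D3:**
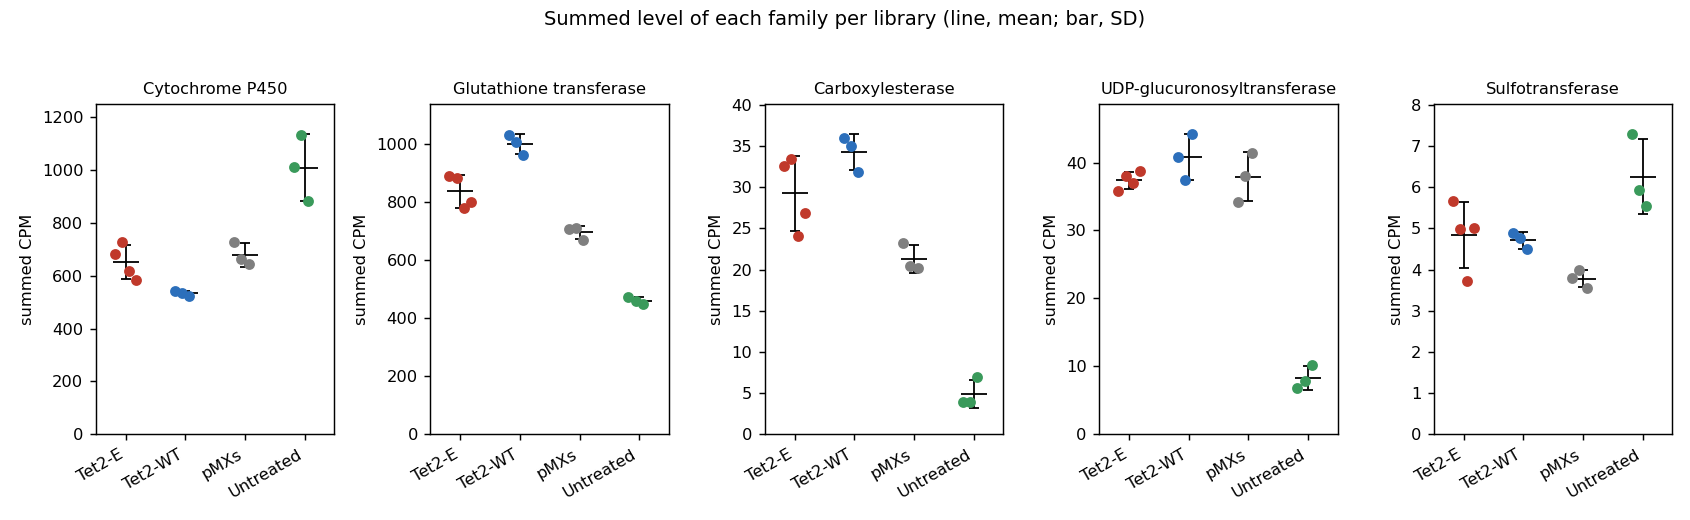
Summed CPM of each of 5 families in each library (points), with the mean (line) and SD (bar) of the group, and y axes that start at 0. Glutathione transferases sum to 839 CPM in Tet2-E, 1001 CPM in Tet2-WT, 696 CPM in pMXs and 460 CPM in Untreated, while P450 sums are highest in Untreated at 1008 CPM. Cyp1b1 alone makes up 64.9 to 75.5% of the P450 sums of the groups.

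Genes of the NRF2 pathway outside these families also changed between Tet2-WT and pMXs. Of 31 tested genes of the pathway and its textbook targets, 11 were higher and 1 lower in Tet2-WT than in pMXs. The median of the list was 0.23, beside 0.00 over all genes, of which 6.01% were higher and 6.52% lower. In Tet2-E against Tet2-WT 1 was higher and 4 lower, beside 2.19% and 2.43% of all genes. Between Tet2-E and pMXs 0 passed in edgeR. In pMXs against Untreated 9 were higher and 13 lower, beside 35.0% of all genes each way. Across the alternative settings the number higher in Tet2-WT than in pMXs ran from 8 to 17, the number lower in Tet2-E than in Tet2-WT from 1 to 5, and the number higher in Tet2-E than in pMXs from 0 to 4. Nfe2l2 itself had 186, 204, 185 and 175 CPM in Tet2-E, 242, 243 and 231 CPM in Tet2-WT, 151, 167 and 144 CPM in pMXs, and 112, 120 and 113 CPM in Untreated. None of the 4 groups overlapped. It rose in Tet2-WT over pMXs (0.63 ± 0.07, edgeR adjusted p = 5.63e-05) and was lower in Tet2-E than in Tet2-WT (-0.35 ± 0.07, edgeR adjusted p = 0.00705). Srxn1, which repairs oxidised peroxiredoxins, and Gsr, which regenerates glutathione, rose by 0.62 ± 0.11 and 0.54 ± 0.07 in Tet2-WT over pMXs (edgeR adjusted p = 0.00122 and 8.49e-05). Akr1b8, an aldo-keto reductase, was the gene of the list that fell (-0.54 ± 0.12, edgeR adjusted p = 0.00632), a call kept in 13 of 15 alternatives.

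The list of the aryl hydrocarbon receptor pathway has 10 genes and also holds Nfe2l2. Of these, 3 were higher and 3 lower in Tet2-WT than in pMXs (median -0.09), beside 6.01% and 6.52% of all genes. Aldh3a1, an aldehyde dehydrogenase and Ahr target, had 408, 383, 298 and 305 CPM in Tet2-E, 925, 844 and 746 CPM in Tet2-WT, 268, 220 and 198 CPM in pMXs, and 1.08, 1.21 and 0.974 CPM in Untreated. No 2 groups overlapped. It rose in Tet2-WT over pMXs (1.87 ± 0.13, edgeR adjusted p = 7.56e-07) while Cyp1b1, another textbook target, fell. The receptor gene Ahr had 35.9, 42.5, 49.2 and 53.1 CPM in Tet2-E, 28.5, 26.7 and 43.6 CPM in Tet2-WT, 47.7, 64.8 and 76.4 CPM in pMXs, and 122, 122 and 102 CPM in Untreated, and fell in Tet2-WT against pMXs (-0.94 ± 0.20, edgeR adjusted p = 0.00826, and 0.0607 in a fit of these 2 groups alone). The repressor gene Ahrr fell by 1.7 ± 0.35 on the log2 scale (edgeR adjusted p = 0.00472). Within numbers 1 and 2, with 1 pMXs library, its change was -0.78.

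**Figure D4:**
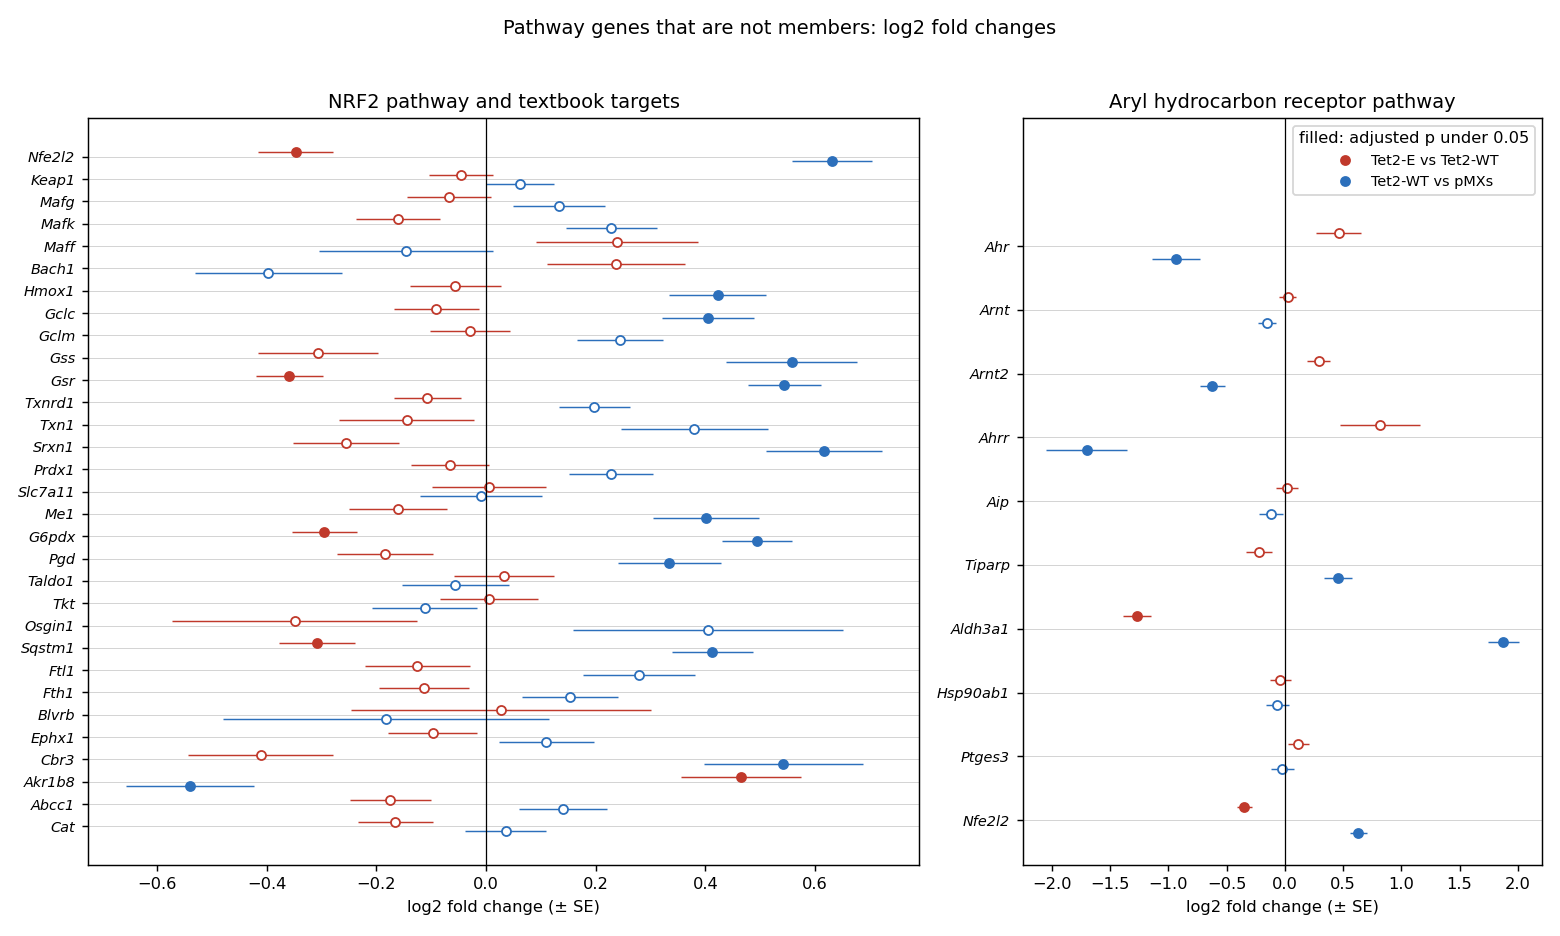
Log2 fold changes (x axis, with SE) of 31 NRF2 pathway genes (left) and 10 aryl hydrocarbon receptor pathway genes (right), none of them members, in Tet2-E against Tet2-WT (red) and Tet2-WT against pMXs (blue), which share the Tet2-WT libraries; filled points have an adjusted p under 0.05. Of the NRF2 genes, 11 blue filled points lie to the right of 0 and 1 to the left, beside 6.01% and 6.52% of all genes.

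Changes were also found in other pathways around these enzymes. Over all genes, 6.01% rose and 6.52% fell in Tet2-WT against pMXs. Of 14 tested retinoic acid pathway genes 3 fell in Tet2-WT against pMXs, among them Aldh1a2, which makes retinoic acid (-1.51 ± 0.23, edgeR adjusted p = 0.000564), and Dhrs3, which reduces retinaldehyde (-0.47 ± 0.10, 0.00547), beside a Cyp26b1 difference of -0.40 ± 0.18 that did not pass (0.174). Of 11 genes of steroid synthesis 1 passed, Hsd3b7, an oxysterol dehydrogenase of bile acid synthesis (0.95 ± 0.09, edgeR adjusted p = 8.96e-06). Of 8 electron donor genes 1 passed, Cyb5b, a mitochondrial cytochrome (0.30 ± 0.09, edgeR adjusted p = 0.0344), a call lost without Tet2-WT replicate 1 or 2 or pMXs replicate 100 or 250 (0.123 to 0.145). Of 14 nuclear receptor genes 1 rose and 2 fell, of 19 other oxidation, hydrolysis and conjugation enzymes 3 rose and 1 fell, and of 12 transporters 3 rose. In pMXs against Untreated, 2 nuclear receptors rose and 10 fell, against 35.0% of all genes each way. Of the other oxidation, hydrolysis and conjugation enzymes, 1 rose and 14 fell there.

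Markers of other cell types moved in the same comparisons. Over all genes, 6.01% rose and 6.52% fell in Tet2-WT against pMXs, and 2.43% fell in Tet2-E against Tet2-WT. Of 6 tested macrophage and blood cell markers 4 rose in Tet2-WT over pMXs and the same number fell in Tet2-E against Tet2-WT, and their sums over 8 markers were 93.5 to 127 CPM in Tet2-E, 213 to 309 CPM in Tet2-WT, 81.0 to 94.6 CPM in pMXs and 5.89 to 6.86 CPM in Untreated. Laptm5 alone made up most of these sums in the day 5 groups. It averaged 96.1 CPM in Tet2-E, 251 CPM in Tet2-WT, 80 CPM in pMXs and 0.263 CPM in Untreated. The defining markers Ptprc and Adgre1 had group means of at most 0.0741 CPM in every group. In pMXs against Untreated, 3 of the 6 tested markers rose and 3 fell, beside 35.0% of all genes each way. Of 12 fibroblast markers 6 fell and 1 rose in Tet2-WT against pMXs and all 12 fell in pMXs against Untreated. Of 9 tested keratinocyte markers 3 rose in Tet2-WT over pMXs, of 3 tested intestinal markers 1 rose (Cdh17), of 3 tested adipocyte markers 1 rose (Pparg), and of 10 pluripotency markers 1 rose and 1 fell. The Pparg call was lost without Tet2-WT replicate 1 or 2, without any pMXs library (adjusted p 0.0622 to 0.159) and with the replicate block (0.0844). The part of these cell types in the member changes was not tested.

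Most members below the count filter had few reads in any library, and 1 library held more of them than the others. The 135 members below the count filter had a median of 3 counts over all libraries. Of the 107 with any read, 65 had their highest level in Untreated replicate 100, where 87 of them had a read and their sum was 408 counts (19.9 CPM), against 40 to 98 counts (2.09 to 4.22 CPM) in the other 12 libraries. Cyp2e1, the ethanol-oxidising P450 of liver, had 62 of its 63 counts there, and Ces1c, Cyp3a11 and Cyp2a4, named like Cyp2e1 after their values were seen, reached 1.51, 0.682 and 0.682 CPM there. The hepatocyte marker Alb, serum albumin, was 40.6 CPM in the same library and at most 0.138 CPM elsewhere. Leaving out that library left 38 called members between pMXs and Untreated, 36 of them shared with the full set. Cyp4f17 (edgeR adjusted p = 0.0550) and Cyp21a1 (0.0746) were lost without it, and Cyp2t4 (0.0313) and Sult4a1 (0.00344) were gained. None of these shifts was particular to that library. Cyp21a1 was also lost without Untreated replicate 1 or 2 or pMXs replicate 2 or 100. Cyp4f17 was also lost without Untreated replicate 2 or pMXs replicate 250. Cyp2t4 and Sult4a1 were also gained without pMXs replicate 100. The part of liver RNA in the low counts was not tested further.

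**Figure D5:**
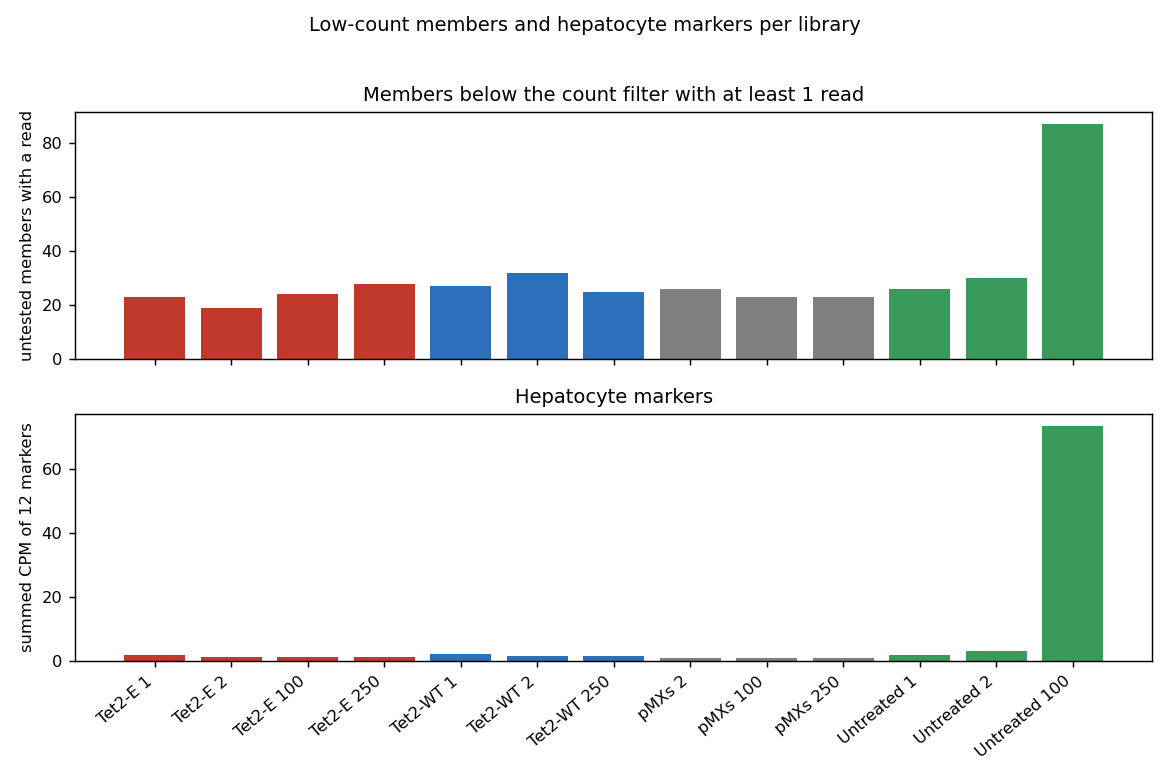
Number of members below the count filter with at least 1 read (top, bars) and summed CPM of 12 hepatocyte markers (bottom, bars) in each of the 13 libraries, coloured by group. Untreated replicate 100 has 87 such members and 73.7 CPM, against at most 32 members and 3.02 CPM in any other library.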

How the data were processed

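RNA from 13 libraries in 4 groups was used as 1 table of raw read counts per gene that the authors deposited. Per the submitters' processing notes, STAR 2.6.1a, SAMtools 1.7, bedtools 2.27.1, featureCounts 1.6.2, R 3.6.2, DESeq2 1.26.0 and the mm9 build were named, without their roles. Per the labels' protocols, a stranded kit was used and libraries were prepared in 2 sets, without saying which. Whether counting used strand is not given in the sources used here.

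Genes passed filterByExpr (minimum count 10, minimum total 15), which kept 14607. All 13 libraries were fitted together with edgeR 4.0.16 (R 4.3.3; TMM scaling, robust quasi-likelihood test, group means, no block), which gave 4 comparisons, and p-values were adjusted by Benjamini-Hochberg over all genes tested. The biological coefficient of variation was 0.102. SE is the size of the log2 fold change divided by the root of F. CPM used TMM library sizes. Intervals of count ratios are exact and, like depth, cover counting error only. Levels per kilobase used union exon lengths. The steps were tested on simulated data.

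Named genes were the members called between day 5 groups at 1 CPM or more, the members with the strongest calls between pMXs and Untreated and the most abundant of each family, and, from 16 lists of pathway and marker genes, up to 2 that rose and 2 that fell in each comparison; Tet2 and the defining markers Ptprc, Adgre1, Nr5a1, Hsd3b1, Star and Alb were added. Members and lists were chosen with earlier results of these data known. Alternatives were no filter, a filter of 1 CPM in 3 libraries, RLE scaling, DESeq2 1.42.0, a replicate block, a term for the set of numbers, the compared groups alone and leaving out each library. Values within numbers 1 and 2 and within 100 and 250 were added after seeing the data. They rest on 1 pMXs library within numbers 1 and 2. Within 100 and 250 they rest on 1 Tet2-WT and 1 Untreated library. Same-numbered day 5 libraries deviated from their group means together (8 pairs, r 0.121 to 0.339), which meets the criterion for pairing by number, but libraries of other numbers in the same set did so to a like extent (8 pairs, r 0.0784 to 0.363). The sets are spread unequally over the groups: Tet2-WT has numbers 1, 2 and 250, and pMXs has 2, 100 and 250. An unblocked difference between these groups can therefore hold part of a difference between the sets. The fit reported has no block, and the blocked value stands beside a result where it changes the call.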

Additional observations from a re-analysis of the deposited data

Results flagged for a closer look

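Among the named members in the 4 Tet2-E libraries, 3 values stood apart from the other 3 libraries by more than Dixon's 95% critical value, which chance passes in about 1 in 20 groups; 33 members were examined. Cyp4f17 was 14.8 CPM in Tet2-E replicate 2, against 16.3 CPM in the nearest library. Mgst3 was 34.3 CPM in Tet2-E replicate 1, against 23.9 CPM in the nearest. Ugt1a6b was 14.3 CPM in Tet2-E replicate 1, against 15.3 CPM in the nearest.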

How the results depend on the processing

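Between Tet2-E and pMXs, where edgeR called 0 members, the count was 1 without a filter, 2 with the replicate block, 3 with a term for the set of numbers, 3 in DESeq2, 2 within numbers 1 and 2, 1 within 100 and 250, and 0 to 1 on leaving out a library. Over all genes that comparison gave 7 calls, against 17, 93, 152, 141, 103 and 83 under the same settings, 0 in a fit of the compared groups alone, and 1 to 50 on leaving out a library. Between Tet2-E and Tet2-WT the members called were 12 with the set term and 3 to 8 on leaving out a library, and the genes called were 1052 with the set term, 1015 within numbers 1 and 2 and 335 to 675 on leaving out a library. With the replicate block, Cyp2s1 (0.92), Cyp4f13 (-0.43) and Gstz1 (-0.19) were added to the calls between pMXs and Untreated. Between Tet2-WT and pMXs, leaving out a library gave 9 to 14 members and 1097 to 1821 genes. Of 1305 alternative values of named members in comparisons where they were not called, 98 had the opposite sign and 0 of those passed the threshold. Among members that changed between day 5 groups these were in Tet2-E against pMXs: Gstp2 was 0.16 within 100 and 250 and ran from -0.17 to 0.066 on leaving out a library, as Cyp1b1 ran from -0.12 to 0.029 and Gstp1 from -0.021 to 0.093. The cause of these shifts was not tested. Members with few reads, such as most Sult and Ces genes, could not be tested at this depth.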
